A study of Mus musculus with 4 samples.

Results

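In lumbar sensory ganglia taken after a constriction injury of the sciatic nerve (CCI), 344 cells carried *Wfdc3* together with the injury-induced gene *Sprr1a*, and these *Wfdc3*+ injured neurons are described here. They were chosen by their UMI counts (unique molecular identifiers, each standing for 1 captured RNA molecule) scaled to 10000 UMIs per cell, a unit written CP10K. A cell of a CCI library was taken when *Sprr1a* was above 1.718 CP10K, *Wfdc3* at least 0.5, *Anxa1* under 1, *Crh* under 0.5, and *Ly6a* under 1. This gave 144 cells in Male-CCI and 200 in Female-CCI, out of 1760 and 2119 *Sprr1a*+ cells, and out of 17836 cells of the whole series that passed the filters. The remaining 3535 *Sprr1a*+ cells of the same 2 libraries are called the other injured neurons, and cells at or under the *Sprr1a* limit are called spared.

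Peripheral sensory neurons of the dorsal root ganglion (DRG) answer axotomy with a broad transcriptional program in which *Sprr1a*, encoding a small proline-rich protein first known from the cornified envelope of skin, is among the most strongly induced genes. *Wfdc3* encodes a protein with WAP four-disulfide core domains, a fold shared with secreted protease inhibitors. Injured sensory neurons also lose much of the expression that marks their subtype, such as the NP1 non-peptidergic itch neurons, which use the natriuretic peptide *Nppb* and somatostatin and carry the interleukin-31 receptor.

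The libraries came from *PirtEGFPf* heterozygous mice on a C57BL/6 background, 7 to 8 weeks old, in which farnesylated EGFP takes the place of the *Pirt* coding sequence on 1 allele. All 4 groups therefore lacked 1 *Pirt* allele, and the sort for GFP+ cells under-represents neurons without *Pirt* expression, most of them large. Lumbar DRGs were taken 7 days after bilateral CCI or sham surgery from males and females. Each library pooled 20 DRGs from 5 mice, and brothers and sisters of a litter underwent 1 kind of surgery, so the spread between animals was not measured and litter cannot be told apart from surgery. No p-value below covers the spread between animals. In the comparison within the CCI libraries, it rests on how the difference between classes varied over those libraries, with variance shared among genes. In the sham comparison it rests on the spread between libraries of 1 surgery, with variance shared likewise.

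The filters (at least 1500 genes and 5000 UMIs, at most 10% mitochondrial UMIs) kept 3343 of 4019 cells of Male-CCI and 4146 of 6618 of Female-CCI, with medians of 56241 and 44250.5 UMIs per cell. The *Wfdc3*+ injured neurons had medians of 62559 and 49583 UMIs and the other injured neurons 60034.5 and 46442. Mitochondrial UMIs had medians of 4.26% and 4.22% against 4.41% and 4.40%, so both classes were close in depth and in mitochondrial share. An automatic doublet caller found 0 doublets in either CCI library and so did not work. Of the *Wfdc3*+ injured neurons, 14.6% and 21.0% fell among the 15% highest doublet scores of their library, against 17.7% and 19.5% of the other injured neurons. Any pair of libraries shared 215 to 513 deposited barcodes, but any CCI library shared at most 7 cells that passed the filters with any 1 other library. Pairs of values are given for Male-CCI and then Female-CCI.

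*Wfdc3*+ injured neurons made up 8.18% of the *Sprr1a*+ cells of Male-CCI (95% exact Clopper-Pearson interval 6.94% to 9.56%) and 9.44% of those of Female-CCI (8.23% to 10.8%). These intervals cover counting error only. They were 4.31% and 4.82% of all filtered cells. Another 80 and 96 *Sprr1a*+ cells reached the *Wfdc3* limit and were left out because they passed a limit on *Anxa1*, *Crh*, or *Ly6a*. In the spared cells of the same libraries, 1.45% and 1.83% reached the *Wfdc3* limit.

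*Wfdc3* (ENSMUSG00000076434, minus strand of chr2:164731180-164745931, GRCm38) and *Sprr1a* (ENSMUSG00000050359, minus strand of chr3:92483952-92485895) define these cells, and their promoters are shown because the pair is the signature of the group. Each window, from RefSeq on GRCm38.p6, runs from 250 bases before the transcription start to 50 after it, in the direction of the gene. The *Sprr1a* window is chr3:92485832-92486131 and the *Wfdc3* window chr2:164743218-164743517. The *Wfdc3* start in RefSeq lies inside the longer gene model of GENCODE. Capitals mark matches to the AP-1 motif TGANTCA, which reads the same on both strands.
Sprr1a promoter: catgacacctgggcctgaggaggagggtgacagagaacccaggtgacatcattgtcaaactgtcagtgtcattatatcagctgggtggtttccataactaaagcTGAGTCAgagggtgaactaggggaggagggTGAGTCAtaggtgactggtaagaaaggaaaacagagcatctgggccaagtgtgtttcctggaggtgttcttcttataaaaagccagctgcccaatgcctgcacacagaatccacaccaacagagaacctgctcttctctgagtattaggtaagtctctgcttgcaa
Wfdc3 promoter: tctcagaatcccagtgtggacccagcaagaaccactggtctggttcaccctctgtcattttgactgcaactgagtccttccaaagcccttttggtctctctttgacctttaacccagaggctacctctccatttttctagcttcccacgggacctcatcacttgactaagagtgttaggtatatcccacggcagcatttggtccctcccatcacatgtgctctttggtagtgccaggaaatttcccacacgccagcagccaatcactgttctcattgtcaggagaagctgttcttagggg
The *Sprr1a* window held 2 AP-1 matches, at positions 105 and 135 of the window, and the *Wfdc3* window held 0. Of 32851 promoter windows of the same length, 2565 (7.81%) held at least 1 match. The cAMP response element TGACGTCA was in neither window and in 1.79% of all windows. These are matches of letters and not tests of binding.

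The 5 genes of the rule are described without a test. Level here means CPM, a gene's UMIs added up over all cells of 1 class and library and divided by the class total in units of 1000000 UMIs. *Wfdc3* stood at 338 and 276 CPM in the *Wfdc3*+ injured neurons against 19.4 and 18.5 in the other injured neurons, 17.4 and 14.9 times as high. It stood at 7.14 and 7.91 CPM in spared cells of the CCI libraries and at 2.28 and 3.39 in those of Male-Sham and Female-Sham. *Wfdc3* transcripts were thus present outside the group, with 1 UMI or more in 35.0% and 30.2% of the other injured neurons.

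The limit cut through a continuous range of levels. The median cell held 1.59 and 1.30 CP10K of *Wfdc3*, with quartiles of 0.863 to 3.65 and 0.725 to 3.01 and highest cells of 26.7 and 44.3. In whole molecules the median was 11 and 6 UMIs and the maximum 160 and 242, while 2 and 7 cells were chosen on 1 UMI. Between 0.5 and 0.75 CP10K lay 26 and 53 of the chosen cells, and between 0.25 and 0.5 lay 95 and 114 cells that passed the other 4 limits.

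**Figure D1:**
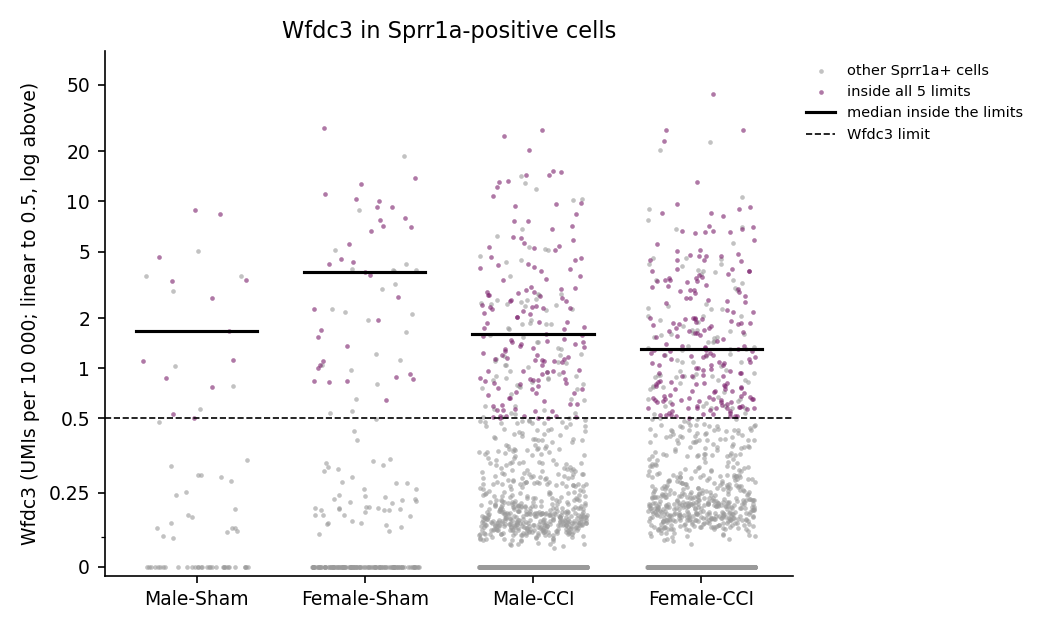
*Wfdc3* in CP10K (symmetric log axis) in every *Sprr1a*+ cell of Male-CCI and Female-CCI, with cells inside all 5 limits in purple, other injured neurons in grey, a bar at the median, and a dashed line at the limit of 0.5. The chosen cells spread from the limit up to 26.7 and 44.3 CP10K, with medians of 1.59 and 1.30.

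*Sprr1a* was not set higher by the choice in both libraries, at 3955 and 2685 CPM against 3401 and 2703. *Anxa1*, which encodes annexin A1, stood at 5.23 and 5.04 CPM against 106 and 124. *Crh*, encoding corticotropin-releasing hormone, stood at 5.45 and 4.11 CPM against 102 and 91.4. *Ly6a*, a surface protein gene, stood at 7.41 and 8.23 CPM against 41.6 and 37.0. These 3 genes were low by the rule. Because 559 and 744 of the other injured neurons were over at least 1 of the 3 limits, the comparison was also made with only the 1057 and 1175 that were under all 3.

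The label was checked on *Sema6a* and *Mustn1*, which were given as further markers of these cells. *Sema6a*, encoding a transmembrane semaphorin, stood at 236 and 251 CPM against 204 and 208 in the other injured neurons. Its log2 fold change was 0.24 (SE 0.036, edgeR adjusted p = 1.06e-05). *Mustn1*, a musculoskeletal nuclear protein gene, stood at 30 and 19.9 CPM against 20.1 and 18.0, with a log2 fold change of 0.38 (edgeR adjusted p = 0.00766). Both differences were under the log2 limit of 0.5 set for a call, so neither gene was called, although both were called higher than in sham neurons (log2 fold changes of 6.01 and 2.1).

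Injury genes stood at like levels in both classes. Of 9 further injury genes, among them *Atf3*, *Sox11*, *Gal*, and *Cryba2*, 0 passed the edgeR or the DESeq2 call against the other injured neurons, with a median log2 fold change of 0.04. Of these 9, 6 had an unadjusted edgeR p below 0.05 with a fold under the limit. Over all 15209 genes tested in that comparison, 3232 had an unadjusted edgeR p below 0.05, the background for each such count here and below. *Atf3*, a transcription factor induced by axotomy, stood at 1186 and 1203 CPM against 1141 and 1182. *Gal*, encoding galanin, stood at 5642 and 5994 CPM against 5965 and 6483. Of 6 general neuronal genes such as *Tubb3*, 0 passed either call (3 had an unadjusted p below 0.05), and after each cell was thinned to 5000 UMIs at least 2 of the 6 were detected in 100% of the *Wfdc3*+ injured neurons of both libraries.

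To ask what else sets these neurons apart, the UMIs of the *Wfdc3*+ and of the other injured neurons were summed in each CCI library and compared by edgeR's quasi-likelihood test, with the library as a block. A gene was called at an adjusted p below 0.05 and an absolute log2 fold change above 0.5. Of 15209 genes tested, 567 were called (3.73%), of which 166 were higher (1.09% of those tested) and 401 lower (2.64%) in *Wfdc3*+ injured neurons. All 567 had the same sign in both libraries, which the call itself makes likely, so the shared sign is no separate support. Of them, 60 of the higher and 210 of the lower genes changed more than 1 log2 unit. The 4 sums leave 1 residual degree of freedom, so edgeR drew on the variance of all genes. The count fell to 185 without the block (72 higher, 113 lower) and to 158 with DESeq2 (55 higher, 103 lower).

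**Figure D2:**
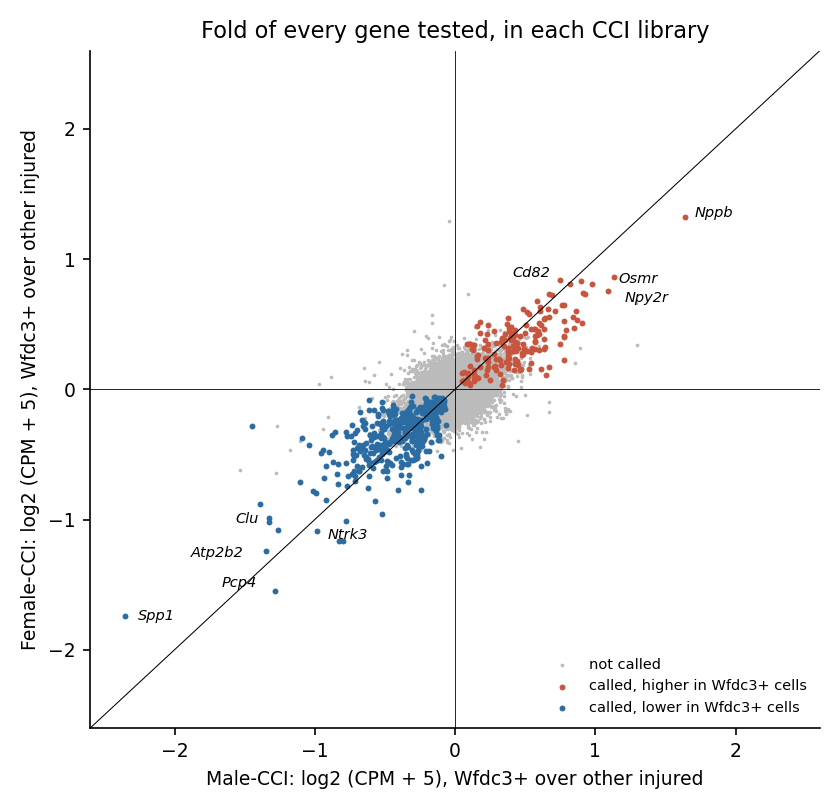
Log2 fold change of *Wfdc3*+ over other injured neurons, on log2 of CPM plus 5, in Male-CCI (horizontal axis) and Female-CCI (vertical axis) for the 15209 genes tested, with called genes in red where higher and blue where lower. *Nppb* lies highest among the labelled genes that rose, and the 166 higher and 401 lower genes lie on the same side of 0 in both libraries, which the call itself makes likely.

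Among called genes at 20 CPM or above in both libraries of the group, the 3 with the largest rises, *Nppb*, *Npy2r*, and *Osmr*, are expressed by itch neurons. *Nppb* (ENSMUSG00000029019, plus strand of chr4:147985788-147987205), encoding the natriuretic peptide that relays itch to the spinal cord, stood at 38.6 and 26.5 CPM against 9.01 and 7.59. Its log2 fold change was 1.96 (SE 0.092, edgeR adjusted p = 5.93e-17). Both values were also above the 20.1 and 15.3 CPM of the spared cells in the same libraries. *Npy2r* (ENSMUSG00000028004, minus strand of chr3:82538383-82548084), a receptor for neuropeptide Y, stood at 71.6 and 52.7 CPM against 29.9 and 26.7, a rise of 1.12 (SE 0.064, edgeR adjusted p = 2.63e-13). *Osmr*, the oncostatin M receptor subunit that also pairs with *Il31ra* in the interleukin-31 receptor, stood at 37.3 and 31.4 CPM against 14.9 and 16.5, a rise of 1.12 (SE 0.088, edgeR adjusted p = 1.62e-09). In spared cells *Npy2r* stood at 16.4 and 17.7 CPM and *Osmr* at 42.0 and 35.1, so *Npy2r* was above and *Osmr* below the spared level.

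Of 6 NP1 markers, 4 rose and 0 fell against the background of 3.73% called, with a median log2 fold change of 1.33 beside -0.00141 over all genes tested. *Htr1f*, a serotonin receptor, stood at 16.2 and 16.5 CPM against 7.67 and 6.98 (log2 fold change 1.15). *Cysltr2*, a cysteinyl leukotriene receptor, stood at 8.17 and 5.45 CPM against 2.04 and 2.33 (1.63). *Il31ra*, the ligand-binding subunit for interleukin-31, stood at 18.5 and 13.3 CPM against 4.64 and 6.53 but was not called (log2 fold change 1.5, edgeR adjusted p = 0.151). DESeq2 called it (adjusted p = 8.03e-07). *Sst*, encoding somatostatin, went the other way in level, at 0.109 and 0.309 CPM against 0.498 and 0.529, and was not called, while sham neurons held 26.3 and 18.7 CPM. The sums of the group thus held very little *Sst*.

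The same direction held when the other injured neurons were limited to those under the *Anxa1*, *Crh*, and *Ly6a* limits, with log2 fold changes of 1.52 for *Nppb*, 0.86 for *Npy2r*, and 0.91 for *Osmr*, all called by edgeR. Against only the cells over at least 1 of those limits they were 3.46, 1.79, and 1.61. In that second comparison 901 genes were called, 415 of them higher, so that 46.1% of the calls were higher against 29.3% in the comparison with all other injured neurons.

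**Figure D3:**
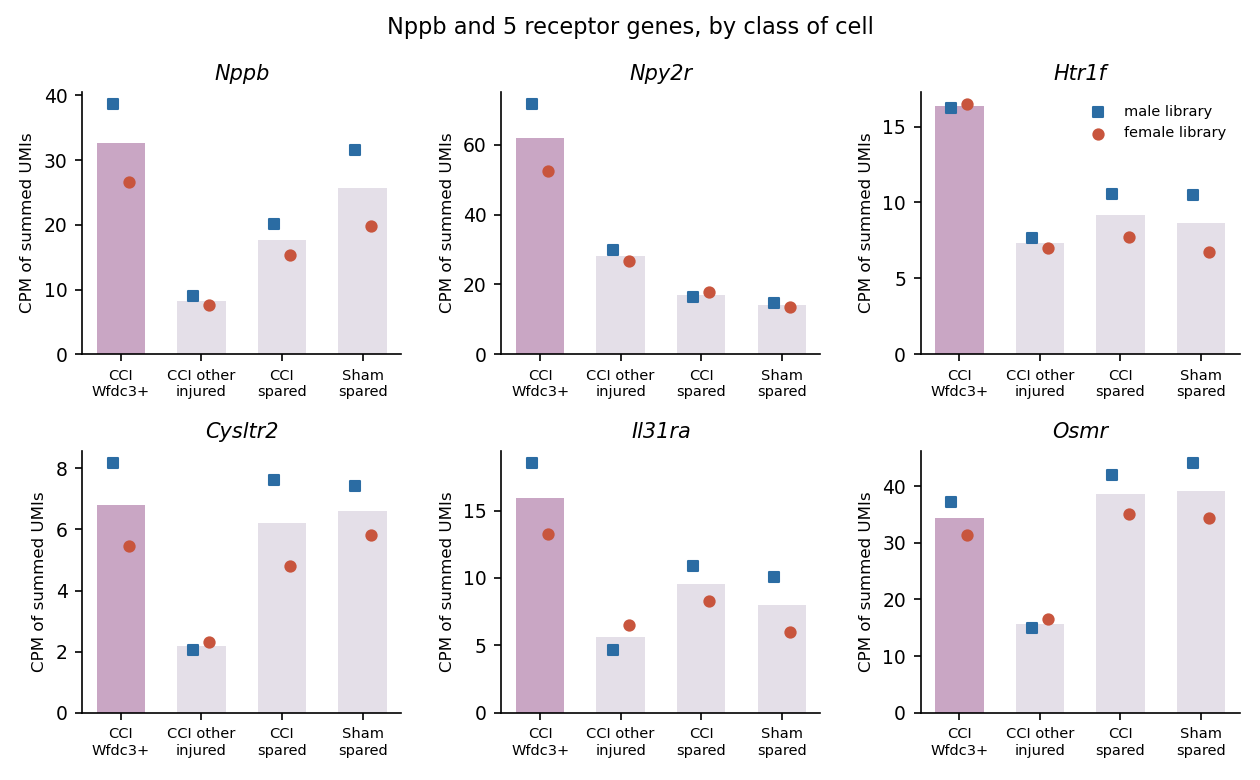
Levels in CPM of *Nppb*, *Npy2r*, *Htr1f*, *Cysltr2*, *Il31ra*, and *Osmr* in each class of cells, with bars for the mean of 2 libraries, squares for the male and circles for the female library. In *Wfdc3*+ injured neurons *Nppb* stood at 38.6 and 26.5 CPM, above the 9.01 and 7.59 of the other injured neurons.

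Cells with NP1 transcripts were a minority of the group. After thinning, *Nppb* was detected in 15 of 144 (10.4%) and 14 of 200 (7.00%) *Wfdc3*+ injured neurons. The share was 2.35% and 2.08% in the other injured neurons and 2.59% and 1.87% in spared cells, and without thinning 20.8% and 15% of *Wfdc3*+ injured neurons had a *Nppb* UMI. The 5% of cells with the most *Nppb* held 55.6% and 67.8% of the group's *Nppb* UMIs. At least 2 NP1 markers were found in 13 (9.03%) and 14 (7.00%) *Wfdc3*+ injured neurons, against 2.48% and 2.66% of the other injured neurons.

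The comparison was repeated without the cells that held at least 2 NP1 markers. This choice uses the markers themselves and leaves in cells with 1 marker, so it does not test how far single cells carry the difference. With those cells left out of both classes, the log2 fold changes were 2.21 for *Nppb*, 1.05 for *Npy2r*, and 1.13 for *Osmr*, and each was still called by edgeR. The number of genes called was then 407, of which 392 were among the 567, and *Cck*, *Piezo1*, and *P2rx2* were not among them.

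NP1 levels were also followed along *Wfdc3* itself among *Sprr1a*+ cells under the *Anxa1*, *Crh*, and *Ly6a* limits. The summed level of the 6 NP1 markers was 55.2 and 55.8 CPM in the 726 and 857 cells without a *Wfdc3* UMI. It was 122 and 119 CPM in the 95 and 114 cells at 0.25 to 0.5 CP10K, which lie outside the group, and 170 and 156 CPM in the 34 and 32 cells at 4 CP10K or above. Between these it went up and down, with 84.1 and 104 CPM at 0.5 to 0.75. The NP1 level therefore had no step at the limit of 0.5.

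*Pcp4* was highest in cells without *Wfdc3* or with little of it, and did not fall evenly. It stood at 105 and 111 CPM in cells without *Wfdc3*, at 51.0 and 29.2 CPM at 0.25 to 0.5 CP10K, and at 16.5 and 13.9 CPM at 0.75 to 1. Above that it stood at 62.7 and 20.5 CPM at 1 to 2 CP10K, 71.3 and 39.8 at 2 to 4, and 7.02 and 43.2 at 4 or above. *Sema6a* stayed between 180 and 273 CPM in Male-CCI and between 191 and 315 in Female-CCI. The bins at or above 0.5 held 19 to 54 cells each, and their values are descriptions with no test.

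**Figure D4:**
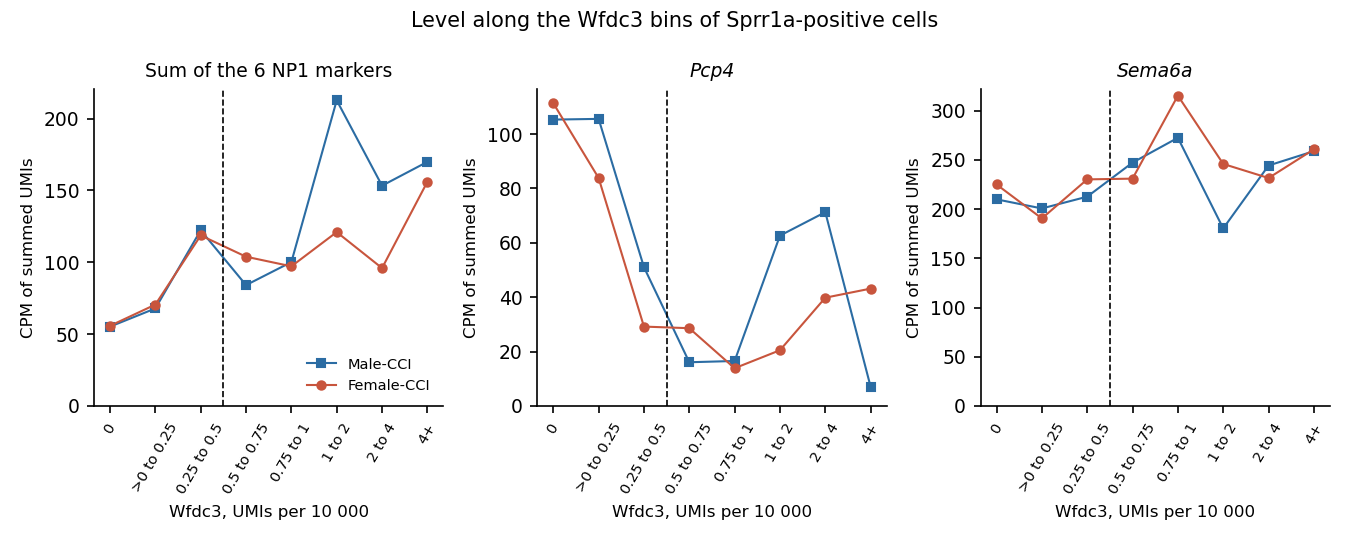
Summed NP1 markers, *Pcp4*, and *Sema6a* in CPM (vertical axes) over bins of *Wfdc3* in CP10K (horizontal axis) among *Sprr1a*+ cells under the *Anxa1*, *Crh*, and *Ly6a* limits, with 1 line per CCI library and a dashed line at the limit of 0.5. The NP1 sum goes from 55.2 and 55.8 CPM without *Wfdc3* to 170 and 156 CPM at 4 CP10K or above.

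The other named genes that rose include several membrane and secretory proteins. *Cd82*, a tetraspanin gene, stood at 29.5 and 33.3 CPM against 14.5 and 16.8 (log2 fold change 1.00). *Tspan8*, another tetraspanin gene, stood at 73.2 and 76.1 CPM against 37.1 and 40.5 (0.94). *Stom*, encoding the membrane protein stomatin, stood at 49.7 and 42.4 CPM against 27.3 and 25.3 (0.80). In spared cells *Stom* stood at 7.36 and 7.94 CPM, whereas *Tspan8* was at 84.1 and 81.3, above its level in the group.

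*Resp18*, a gene of the neuroendocrine secretory pathway, had the highest level of these 12 genes, at 130 and 112 CPM against 65.9 and 65.1 (log2 fold change 0.87). *Lgi1*, encoding a secreted ligand of ADAM proteins at synapses, stood at 38.7 and 33.5 CPM against 18.3 and 18.1 (0.98). *Igfbp2*, encoding an insulin-like growth factor binding protein, stood at 25.2 and 22.0 CPM against 11.6 and 12.8 (0.94). The remaining rises were in *Dnase1l3*, a DNase gene, at 40.0 and 33.5 CPM against 19.6 and 21.7 (0.82), *Ptk2b*, a calcium-linked tyrosine kinase gene, at 26.5 and 28.8 against 14.5 and 15.4 (0.88), and *Camk4*, a calmodulin-dependent kinase gene, at 33.2 and 24.9 against 17.3 and 15.8 (0.80). All were called by edgeR.

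*Cd207*, encoding the lectin langerin, was singled out after its values were seen, at 13.0 and 11.4 CPM against 4.12 and 4.35 (log2 fold change 1.52, edgeR adjusted p = 4.68e-10). It stood at 0.165 and 0.199 CPM in sham neurons. *Kit*, encoding the stem cell factor receptor and one of the PEP markers, stood at 44.2 and 35.9 CPM against 22.4 and 24.5 (0.76).

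Among called genes at 20 CPM or above in both libraries of the other injured neurons, *Atp2b2* and *Pcp4* fell most. *Atp2b2*, encoding a plasma membrane calcium pump, stood at 5.56 and 6.38 CPM against 21.9 and 21.8 (log2 fold change -1.88, SE 0.12, edgeR adjusted p = 1.96e-13). *Pcp4*, encoding a small calmodulin-binding protein, stood at 36.6 and 28.9 CPM against 96.1 and 94.3 (-1.55, SE 0.063, edgeR adjusted p = 1.18e-16). Sham neurons held 538 and 461 CPM of *Pcp4*, so the level in the group was the lowest of these classes. *Ntrk3*, the neurotrophin-3 receptor TrkC, stood at 15.8 and 14.0 CPM against 36.1 and 35.3 (-1.27).

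The other 9 genes with the largest decreases at that level had log2 fold changes from -1.27 to -0.81. *Clu*, encoding clusterin, stood at 40.8 and 40.7 CPM against 105 and 91.6 (log2 fold change -1.27). *Mcam*, an adhesion molecule gene, stood at 19.8 and 24.8 CPM against 48.6 and 43.9 (-1.05), and *Cntn1*, encoding contactin 1, at 27.6 and 27.4 against 56.5 and 43.8 (-0.87). *Sncb*, encoding beta-synuclein, stood at 77.4 and 76.7 CPM against 152 and 126 (-0.85), and *Synpr*, encoding synaptoporin, at 16.8 and 22.9 against 35.5 and 34.0 (-0.81). *Cckar*, a cholecystokinin receptor gene, stood at 13.3 and 9.67 CPM against 21.3 and 23.6 (-0.98), *Mgst3*, a glutathione transferase gene, at 115 and 138 against 233 and 244 (-0.92), *Rarres1* at 12.8 and 15.2 against 26.6 and 28.5 (-0.98), and *Fam19a4*, encoding a secreted TAFA protein, at 14.5 and 19.4 against 28.3 and 35.8 (-0.92). *Fam19a4* was the exception to the call against cells under the 3 limits, at -0.28.

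Several markers of low-threshold and neurofilament neurons were lower in the group than in all other injured neurons together. Over all genes tested there, 1.09% were called higher and 2.64% lower, the background for these and the following marker counts. All 6 markers of C-fiber low-threshold mechanoreceptors (cLTMR), namely *Th*, *Fam19a4*, *Slc17a8*, *C1ql4*, *Gfra2*, and *P2ry1*, fell against the other injured neurons, with a median log2 fold change of -1.18, and DESeq2 called 2 of them (*Fam19a4* and *Gfra2*). *Gfra2*, the neurturin receptor, stood at 2.51 and 3.91 CPM against 5.92 and 7.78. The 6 cLTMR markers summed to 19.6 and 26.1 CPM in the group, of which *Fam19a4* held 14.5 and 19.4, and 2 of the 6 had 0 UMIs in Male-CCI. *C1ql4* stood at 0 and 0.103 CPM against 0.602 and 0.787, under 3 UMIs per library in the group. Several of these folds thus rest on few UMIs. Of 8 markers of myelinated neurofilament (NF) neurons, 4 fell, *Pvalb*, *Ntrk3*, *Runx3*, and *Spp1*, with a median of -0.85, or -0.72 with *Runx3* taken at its detection limit, and DESeq2 called 3 of the 4. *Runx3*, a transcription factor of proprioceptors, had 0 UMIs in the group, which allows up to 0.327 and 0.309 CPM (3 UMIs per library), against 0.653 and 0.810 CPM. *Spp1*, encoding osteopontin, stood at 0.327 and 0.720 CPM against 22.2 and 14.1 (-5.09), and its call was lost without the block (edgeR adjusted p = 0.0818). Against other injured neurons over at least 1 of the 3 limits, 2 of 7 NF markers tested fell (*Ntrk3* and *Spp1*). There *Slc17a7* rose, and the NF median was -0.08. Against those under all 3 limits, 6 of 8 NF markers fell (median -0.98). For cLTMR markers, 4 of 4 tested fell against cells over the limits. Against those under them 4 of 6 fell, without *Th* and *Fam19a4*. No share over all genes is given for these 2 comparisons, so their counts are descriptions only.

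**Figure D5:**
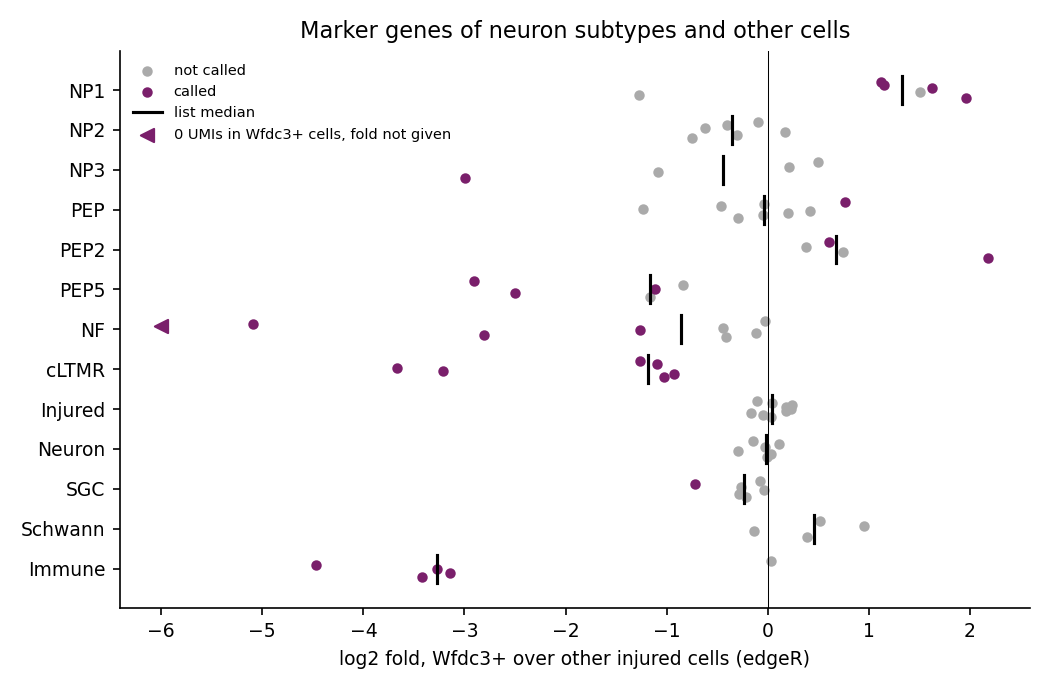
Log2 fold change of *Wfdc3*+ over other injured neurons (horizontal axis) for each tested marker gene, by marker list, with a left-pointing triangle for *Runx3*, which had 0 UMIs in the group and so has no fold. The NP1 markers have a median of 1.33, and the cLTMR markers a median of -1.18.

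Fewer peptidergic and other non-peptidergic markers were called. Of 8 PEP markers 1 rose (*Kit*), of 6 NP2 markers 0 were called by edgeR or DESeq2 (0 at an unadjusted p below 0.05), of 4 NP3 markers tested 1 fell (*Mrgpra3*), of 4 PEP2 markers 2 rose (*Tmc3* and *Slc5a7*), and of 5 PEP5 markers 3 fell (*Foxp2*, *Cdh8*, and *Gpr26*). DESeq2 called *Kit*, *Foxp2*, and *Gpr26* and none of the NP3 or PEP2 markers, and *Mrgpra3* was also not called against the other injured neurons under the 3 limits. After thinning, *Tac1*, encoding substance P, was detected in 11.1% and 22.0% of *Wfdc3*+ injured neurons against 15.5% and 23.7% of the other injured neurons, and the neurofilament gene *Nefh* in 47.2% and 48.0% against 54.8% and 48.1%. *Mrgprd*, the NP2 receptor gene, was detected in 0.694% and 1.00%. *Trpm8*, the cold receptor gene, was detected in 0 of 144 and 0 of 200 cells after thinning, which allows a share at that depth of up to 2.08% and 1.5%, while unthinned it had 2 and 1 UMIs, in 0.694% and 0.5% of cells.

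Markers of non-neuronal cells were followed for the same sums. Of 5 immune markers tested, 4 fell, of which DESeq2 called 1 (*Cd74*), with a median log2 fold change of -3.28, and the 6 listed immune genes summed to 3.92 and 5.55 CPM in the group against 24.1 and 18.5 in the other injured neurons. Of the listed genes, *Lyz2* (0 and 0.720 CPM) and *C1qb* (0 and 0.309 CPM) were at or near 0 in the *Wfdc3*+ injured neurons. *Csf1r* did not fall and was not called (log2 fold change 0.03). After thinning, more than 1 of the 6 immune genes was detected in 17 of 1616 (1.05%) and 19 of 1919 (0.99%) other injured neurons. In the group the counts were 0 of 144 and 0 of 200, with exact upper limits of 2.53% and 1.83%. These limits lie above the shares in the other injured neurons, so the cell counts do not separate the classes. The immune falls thus rest on few cells. The 6 satellite glial cell (SGC) genes summed to 698 and 1212 CPM against 1034 and 1149, with 1 called lower (*Cdh19*). Of 4 Schwann cell and 4 fibroblast or endothelial genes tested, edgeR and DESeq2 called 0, with 0 and 1 at an unadjusted edgeR p below 0.05. The part of other cells in the lower genes was not tested.

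The remaining gene groups were described by their counts beside the 1.09% of genes called higher and the 2.64% called lower. Of 35 peptide, opioid, and amine receptor genes, 3 rose and 8 fell, with a median log2 fold change of -0.41, and DESeq2 called 2 higher and 1 lower. *Npy2r* and *Htr1f* were joined by the bradykinin receptor gene *Bdkrb2*, at 10.1 and 7.71 CPM against 6.00 and 6.48. Among those that fell was *Grik1*, a kainate receptor gene, at 5.34 and 11.4 CPM against 14.9 and 17.7. Of 27 growth factor and cytokine receptor genes, *Osmr* and *Kit* rose and *Ntrk3* and *Gfra2* fell.

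Ion channel genes were lower where they were called at all, apart from *Piezo1* and *P2rx2*. Of 43 potassium channel genes 6 fell (2 with DESeq2) and 0 rose, with a median log2 fold change of -0.33. *Kcnc1*, a fast delayed rectifier gene, stood at 6.21 and 8.13 CPM against 12.5 and 13.2, and *Kcna2*, a juxtaparanodal channel gene, at 9.92 and 6.79 against 14.5 and 13.7. Of 13 sodium channel genes 3 fell, with *Scn1a* at 0.654 and 0.823 CPM against 3.59 and 3.18. Of 17 calcium channel genes 2 fell, and of 26 sensory transduction channel genes 2 rose (*Piezo1*, a mechanically gated channel gene, and *P2rx2*, an ATP-gated channel gene) and 1 fell (*Asic1*). DESeq2 called *Asic1* but neither *Piezo1* nor *P2rx2*, and *Piezo1* was not called against the other injured neurons under the 3 limits. With DESeq2 2 sodium and 1 calcium channel genes were called lower.

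Of 36 neuropeptide and secreted signal genes, *Nppb* and *Cck* rose and 6 fell, whereas DESeq2 called only *Nppb* higher and *Penk* lower. *Cck*, encoding cholecystokinin, stood at only 1.53 and 2.47 CPM against 0.622 and 1.34, and it was not called against the other injured neurons under the 3 limits. *Penk*, the enkephalin precursor gene, stood at 1.53 and 2.67 CPM against 11.3 and 10.2 (log2 fold change -2.35). *Npy* differed between the libraries of the other injured neurons, at 94.4 and 106 CPM against 283 and 167, and was not called (edgeR adjusted p = 0.482). Of 21 sensory identity transcription factor genes, 6 fell (3 with DESeq2) and 0 rose, with *Isl1*, a LIM-homeodomain factor gene, at 51.3 and 51.3 CPM against 78.5 and 77.3 (-0.61) and *Casz1* at 17.7 and 21.1 against 28.3 and 29.9 (-0.59).

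Few genes tied to growth and stress were called. Neither edgeR nor DESeq2 called any of 19 regeneration transcription factor genes, 26 actin-linked, 19 integrated stress response, 14 chaperone, 17 immediate early, or 7 cornified-envelope genes. Of these lists 7, 10, 6, 4, 8, and 3 genes had an unadjusted edgeR p below 0.05, beside 3232 of all 15209 genes tested. Of 33 growth cone genes 1 fell, *Ina*, an intermediate filament gene, at 75.7 and 73.4 CPM against 124 and 104. Of 39 adhesion and guidance genes 3 fell, of 18 p53 genes 1 fell (*Pmaip1*), and of 20 protease inhibitor genes besides *Wfdc3* 3 fell (*Wfdc2*, *Spink2*, and *Serpina3g*) and 0 rose. Of these DESeq2 called 1 adhesion gene (*Cntn1*) and *Ina*, and 0 of the p53 and protease inhibitor genes. *Wfdc2* stood at 0.436 and 0.411 CPM against 1.34 and 2.04.

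The genes most like *Wfdc3* across single *Sprr1a*+ cells were weakly so. Over 1760 and 2119 cells thinned to 5000 UMIs and 11027 genes, Pearson's r was highest in the lower of both libraries for *Maged1* (0.137 and 0.128), *Itga7* (0.107 and 0.101), *Pdlim1* (0.0843 and 0.110), *Eef1b2*, *Dhrs1*, *Ap2a2*, *Phf1*, *Sema6a* (0.0944 and 0.0732), *Fbxo15*, and *Rap1gds1*. Cells of a library share their library and depth after thinning, and in such sparse counts these values are a description only. *Pdlim1*, an actin-linked LIM protein gene, stood at 113 and 107 CPM against 73.1 and 74.0 in the test over sums, and *Fbxo15* at 16.6 and 15.4 against 7.59 and 10.4, both called higher. The other genes named here had smaller log2 ratios of CPM, the largest being 0.41 and 0.38 for *Maged1*. Because these genes were picked by their tie to *Wfdc3* in the same cells, the 2 calls follow in part from that choice and are no separate support.

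Within the group, *Gal* and the nuclear RNA *Malat1* varied most from cell to cell. After thinning, the ratio of variance to mean (Fano factor) was 55.8 and 64.4 for *Malat1* and 61.2 and 63.0 for *Gal*, with *Gal* detected in 77.8% and 78.5% of cells. *Nts*, encoding neurotensin, had 15.4 and 16.1 and was detected in 74.3% and 75%. *Calca*, encoding CGRP, had 8.21 and 23.2. The other injured neurons varied about as much for *Gal* (53 and 61.3) and *Nts* (16 and 19.2).

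The *Wfdc3*+ injured neurons were also set against the spared neurons of the sham libraries, all subtypes together and with *Apoe* under 300 CP10K, so each fold holds both injury and subtype makeup. The lists were chosen with results of these data known, and the injury genes are no independent evidence of direction. Of 16476 genes tested, edgeR called 6604 (40.1%), 2982 higher (18.1%) and 3622 lower (22.0%). All 9 injury genes rose, as did 11 of 19 regeneration transcription factor genes, 14 of 19 integrated stress response genes, and 17 of 33 growth cone genes. Among the lists that fell were 11 of 13 sodium channel genes, 33 of 43 potassium channel genes, 32 of 42 peptide, opioid, and amine receptor genes, and 15 of 22 sensory identity transcription factor genes. Neuropeptide genes went both ways, with 18 of 36 higher and 12 lower.

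Of the 8 named genes with the largest rises over sham neurons at 20 CPM or above, *Cx3cr1* alone was also called between the *Wfdc3*+ and the other injured neurons. *Ifi202b*, an interferon-inducible gene, stood at 34.0 and 33.8 CPM with 0 UMIs in both sham libraries, at least 2120-fold higher against 3 UMIs per library, and at 27.7 and 32.5 CPM in the other injured neurons. *Tgfbi*, an extracellular matrix gene, stood at 58.1 and 59.0 CPM against 0.117 and 0.181 in sham (log2 fold change 8.69). *Fgf3*, a fibroblast growth factor gene, stood at 105 and 106 CPM against 0.255 and 0.439 (8.33). In the other injured neurons *Tgfbi* stood at 67.5 and 64.0 CPM and *Fgf3* at 89.3 and 96.0. *Inhbb*, encoding an inhibin and activin subunit, *Cryba2*, a crystallin gene, *Cckbr*, a cholecystokinin receptor gene, and *Ucn*, encoding urocortin, had log2 fold changes of 7.74, 7.38, 7.36, and 6.89 over sham.

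*Cx3cr1*, the fractalkine receptor gene best known from macrophages and microglia, stood at 74.4 and 51.6 CPM in *Wfdc3*+ injured neurons, 47.7 and 36.4 in the other injured neurons, and 0.122 and 0.557 in sham neurons. It was called in both comparisons (log2 fold changes of 0.57 and 7.58). The immune genes *Lyz2* and *C1qb* stood at or near 0 in the group, as did *C1qa* at 0.109 and 0.720 CPM. *Csf1r*, on the same immune list, was called higher than in sham neurons but not against the other injured neurons. The part of immune cells in the *Cx3cr1* level was not tested.

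Most genes that fell furthest against sham neurons were near 0 in the group. *Mrgprd*, the beta-alanine receptor of NP2 neurons, stood at 0.327 and 1.23 CPM against 72.3 and 45.7 in sham (log2 fold change -6.10). *Htr3a*, a serotonin-gated channel gene, stood at 0.654 and 0 CPM against 28.3 and 24.1, and *Sstr2*, a somatostatin receptor gene, at 0.327 and 0.514 against 33.1 and 34.8. *C1ql4* stood at 0 and 0.103 CPM against 34.6 and 39.3. *Pvalb*, encoding parvalbumin, stood at 0.981 and 0.720 CPM against 89.4 and 43.2 (-6.18), and *Wfdc2*, *Ceacam10*, and *Gm7271* had log2 fold changes of -6.64, -6.54, and -6.55. *Nppb* and *Npy2r* differ from this pattern, at 38.6 and 26.5 against 31.6 and 19.9 CPM and at 71.6 and 52.7 against 14.8 and 13.4 CPM.

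A small number of sham cells met the same 5 limits, 13 of 72 *Sprr1a*+ cells in Male-Sham (18.1%) and 35 of 232 in Female-Sham (15.1%). Their *Wfdc3* medians were 1.67 and 3.75 CP10K. *Nppb* stood at 142 and 167 CPM in these cells and *Nts* at 7518 and 6317, against 38.6 and 26.5 CPM and 1757 and 2019 CPM in the *Wfdc3*+ injured neurons of CCI. *Gal* stood at 1329 and 1610 CPM in them. Of these sham cells 30.8% and 45.7% were among the 15% highest doublet scores of their library, against 14.6% and 21.0% of the CCI cells, and the part of doublets in these levels was not tested. With this few cells no test was made.

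The 2 sexes are 1 library each, so their values carry no test. Of 3176 genes at 50 CPM or above in either sex, 4 were more than 1 log2 unit higher in the female *Wfdc3*+ injured neurons (on CPM plus 5) and 0 were more than 1 lower. *Xist*, expressed from the inactive X chromosome, was 1 of the 4. *Tac1* stood at 38.7 CPM in males and 122 in females, *Ifit1*, an interferon-induced gene, at 45.7 and 130, and *Cartpt*, a neuropeptide gene, at 35.7 and 78.8. In the other injured neurons the log2 ratios of these 3 were 0.56, 0.78, and -0.29, against 1.54, 1.41, and 1.04 in the group. The 5% of cells with the most *Tac1* held 58.0% and 68.5% of its UMIs in the group.

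The satellite glial genes *Apoe* and *Fabp7* were also higher in the female library, with log2 ratios of 0.91 and 0.84, and their part in the other ratios was not tested. In the other direction the 6 largest ratios were -0.56 for *Sprr1a*, -0.49 for *Cx3cr1*, -0.44 for *Flnc*, -0.42 for *Cavin1*, -0.41 for *Hopx*, and -0.41 for *Npy2r*.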

How the data were processed

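The data were 10x single-cell RNA-seq of 4 libraries of sorted GFP+ lumbar DRG cells. The authors aligned reads to mm10 and deposited UMI counts, unscaled whole numbers for 31053 genes in each cell that was called. The labels name Cell Ranger 2.1.1 and the matrix headers 3.0.2. As deposited, barcode and gene files named the cells and genes, other text without a measured unit. The members and gene lists were chosen with earlier results of these data known.

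Cells were filtered as in the methods, plus a minimum of 5000 UMIs. Scrublet (scanpy 1.11.5, expected rate 0.1) scored doublets, and none were removed in the primary comparison. UMIs were summed per class and library and tested by edgeR 4.0.16 (robust quasi-likelihood, TMM, filterByExpr, Benjamini-Hochberg) without the 5 genes of the rule. The current variance estimate of edgeR was used, a choice made after the legacy estimate gave an infinite prior for every gene. SEs were derived from the fold and its F statistic. The members and others of a library come from the same pooled animals, so library was the block. In the sham comparison the 2 libraries of a surgery were the replicates. A level of 3 UMIs served as the floor.

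Named genes were the 12 largest folds in each direction (8 against sham) among genes called, with one sign in both libraries and at least 20 CPM in the higher class; the 10 nearest *Wfdc3* in correlation; the 6 largest sex ratios in each direction at 50 CPM or above; and list members by role. On simulated counts for the first comparison (14948 genes), edgeR recovered 88% of 100 genes changed by 1 log2 unit and called 23 unchanged genes. DESeq2 recovered 60% and called 1 unchanged gene. For the second (16059 genes), edgeR recovered 73% and called 1 unchanged gene, and DESeq2 68% and 3. The simulation had 1 fixed dispersion, no library effect and no pairing, and changed only genes with many UMIs. It therefore does not give the rate of false calls in these data. Of 31053 gene IDs, 30934 matched the GENCODE annotation. Alternatives were DESeq2 1.42.0, other gates, filters, and thinning to 5000 UMIs. The software was R 4.3.3 with limma 3.58.1, and Python 3.11.15 with matplotlib 3.10.9, pandas 2.3.3, scipy 1.17.1, and numpy 2.4.6.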

Additional observations from a re-analysis of the deposited data

How the results depend on the processing

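The 24 genes with the largest folds against the other injured neurons kept their direction under every alternative that gives a test, and 9 of those values lost the call. *Lgi1* (log2 fold change 0.68), *Igfbp2* (0.73), *Camk4* (0.75), *Cckar* (-0.98), and *Fam19a4* (-0.75) lost it on counts thinned to 5000 UMIs, *Mcam* (-1.04) at a *Wfdc3* limit of 1 CP10K, *Cntn1* (-0.33) against other injured neurons over the *Anxa1*, *Crh*, or *Ly6a* limits, and *Fam19a4* without the block (-0.92) and against those under the 3 limits (-0.28). The count of 567 genes (166 higher, 401 lower) became 158 (55, 103) with DESeq2, 93 (36, 57) on thinned counts, and 302 (109, 193) at a *Wfdc3* limit of 1 CP10K. It became 901 (415 higher) against other injured neurons over the 3 limits, and without a filter on low counts 108 genes were higher. Thinning leaves fewer genes to test, and the cause of the other changes was not tested. Leaving out 1 CCI library leaves no test. The 24 genes were named only if they had the same direction in both libraries, so their direction in each library alone was fixed by that choice.

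The fit without the replicate block, which ignores that both sums of a library are paired, called 185 genes (72 higher, 113 lower), 184 of them among the 567. With sex as a replicate block the sham comparison called 6763 genes instead of 6604, and no named gene lost its call. That comparison called 4048 genes (1862 higher, 2186 lower) on thinned counts and 5330 to 6364 with 1 library left out, where the lone library is assumed to vary like the other group. Of its named genes, *Pvalb* (-5.10, -6.42, and -5.98) lost the call on thinned counts and without either CCI library, *Mrgprd* (-4.63) on thinned counts, and *Cx3cr1* (7.30) without Male-CCI.

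The share of *Wfdc3*+ cells among *Sprr1a*+ cells was 5.63% in Male-CCI and 5.71% in Female-CCI at a limit of 1 CP10K, and 6.40% and 6.85% with the limits applied to thinned counts. Without thinning, the shares of these cells with a UMI were 20.8% and 15% for *Nppb*, 62.5% and 80.5% for *Tac1*, 95.8% and 97.0% for *Nefh*, and 4.17% and 4% for *Th*. Depth limits levels in the group below 0.327 and 0.309 CPM, the value of 3 UMIs.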
